A study of Mus musculus with 82 samples.

Results

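The genes described here are 36 mouse developmental transcription factors, namely T-box, Pax, Irx, Six-family and Lhx genes, followed through lists of open-chromatin peaks taken while fibroblasts were being reprogrammed. The members were chosen by name, not by a measured value, and all 36 were found among the 21883 protein-coding genes of the RefSeq table for GRCm38.p6. They divide into 9 T-box, 8 Pax, 6 Irx, 5 Six-family and 8 Lhx genes.

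The cells were OG2 mouse embryonic fibroblasts (OG2-MEFs), which carry a GFP reporter under Oct4 control, infected at passage 2 with retroviruses for Oct4, Sox2, Klf4 and c-Myc (OSKM). Every group used here received OSKM together with a second retroviral insert, either the Flag control or RNase H1(D209N), and was collected at day 3 or day 7. RNase H1 digests the RNA strand of an R-loop, a structure in which RNA pairs with one DNA strand, and the D209N form binds such hybrids but lacks the catalytic activity. Accessibility was measured by ATAC-seq, in which a transposase cuts and tags open DNA in a bulk population. The series holds 82 samples, of which 8 are the ATAC-seq libraries of these 4 groups, with 2 libraries labelled in each. One peak list stands for each group, so there are 4 lists and no replicate spread. The lists carry intervals without heights or read counts, and the depth of the libraries is therefore unknown. No test of a difference was possible, and arm or day cannot be told apart from the individual library or its depth. In a bulk population, fewer cells with an open site and less opening per cell cannot be told apart either. Retroviral infection can leave cells that did not take up every virus, and the labels name 2 media without tying one to these libraries.

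These families encode DNA-binding proteins that place and pattern organs in the embryo: T-box proteins bind through the T domain, Pax proteins through a paired domain, and Irx, Six-family and Lhx proteins through homeodomains. Lhx proteins add LIM domains that recruit Ldb cofactors, and Six-family proteins act with Eya and Dach partners. Their genes typically have CG-rich promoters that Polycomb complexes hold silent in cells where they are not used, while fibroblasts keep a few of them active as a record of where in the body they came from. Several lie in clusters, such as Irx1, Irx2 and Irx4 on chromosome 13, Irx3, Irx5 and Irx6 on chromosome 8, and Six2 beside Six3 on chromosome 17.

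The promoter windows below show the kinds of start site that the lists separate. Each runs 5′ to 3′ on the gene's own strand, from 250 bases before the transcription start to 50 after it, 300 in all, from RefSeq on GRCm38.p6, and capitals mark CG dinucleotides. Tbx18 (chr9:87731211-87731510, minus strand, 15 CG) overlapped a peak in all 4 lists. The Lhx2 window (chr2:38339031-38339330, plus strand, 34 CG) and the Tbx20 window (chr9:24774254-24774553, minus strand, 26 CG) overlapped one in all lists but that of D209N at day 3. Six6 (chr12:72939632-72939931, plus strand, 20 CG) and Tbx21 (chr11:97115282-97115581, minus strand, 21 CG) overlapped peaks at day 7 and none at day 3. Lhx1 (chr11:84525485-84525784, minus strand, 31 CG) overlapped no peak in any list.
Tbx18: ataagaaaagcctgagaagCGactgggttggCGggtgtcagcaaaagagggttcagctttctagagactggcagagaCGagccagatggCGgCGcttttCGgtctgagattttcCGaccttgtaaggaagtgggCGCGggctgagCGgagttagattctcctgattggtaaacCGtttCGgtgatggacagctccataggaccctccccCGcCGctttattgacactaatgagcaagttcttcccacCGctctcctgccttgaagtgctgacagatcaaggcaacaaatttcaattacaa
Lhx2: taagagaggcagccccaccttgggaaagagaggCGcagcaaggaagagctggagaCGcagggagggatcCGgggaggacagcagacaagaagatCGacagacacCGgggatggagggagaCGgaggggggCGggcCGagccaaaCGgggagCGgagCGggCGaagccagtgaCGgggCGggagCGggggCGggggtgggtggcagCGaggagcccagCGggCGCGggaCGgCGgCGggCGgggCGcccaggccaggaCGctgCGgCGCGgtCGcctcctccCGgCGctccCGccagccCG
Tbx20: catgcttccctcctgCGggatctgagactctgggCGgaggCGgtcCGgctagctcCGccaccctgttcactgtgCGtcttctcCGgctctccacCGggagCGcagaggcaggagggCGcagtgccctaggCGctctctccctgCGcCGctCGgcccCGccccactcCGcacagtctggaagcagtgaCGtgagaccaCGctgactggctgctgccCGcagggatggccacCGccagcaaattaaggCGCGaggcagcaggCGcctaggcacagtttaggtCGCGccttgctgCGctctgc
Six6: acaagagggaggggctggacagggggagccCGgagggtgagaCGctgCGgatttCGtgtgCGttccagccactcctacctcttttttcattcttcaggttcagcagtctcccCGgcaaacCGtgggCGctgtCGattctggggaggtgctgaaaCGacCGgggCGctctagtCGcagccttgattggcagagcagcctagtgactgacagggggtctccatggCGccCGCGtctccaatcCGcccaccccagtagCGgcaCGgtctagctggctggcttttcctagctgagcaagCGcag
Tbx21: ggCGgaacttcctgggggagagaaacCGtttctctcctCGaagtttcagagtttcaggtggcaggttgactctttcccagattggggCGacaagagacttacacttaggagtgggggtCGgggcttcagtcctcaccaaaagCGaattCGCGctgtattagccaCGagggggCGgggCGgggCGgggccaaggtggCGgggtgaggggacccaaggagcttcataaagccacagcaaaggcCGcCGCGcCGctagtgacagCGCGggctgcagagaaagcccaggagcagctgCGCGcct
Lhx1: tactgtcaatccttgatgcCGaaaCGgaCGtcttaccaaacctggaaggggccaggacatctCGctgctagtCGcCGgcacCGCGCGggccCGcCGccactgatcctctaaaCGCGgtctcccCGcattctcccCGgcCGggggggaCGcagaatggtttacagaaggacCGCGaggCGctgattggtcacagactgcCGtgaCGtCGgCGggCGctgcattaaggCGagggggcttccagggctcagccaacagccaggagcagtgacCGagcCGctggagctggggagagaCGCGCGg

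Each peak whose centre lay within 100 kb of the end of a protein-coding gene was credited to the nearest one, and is called an assigned peak of that gene. A gene end counted as marked when any peak overlapped the 1 kb on either side of it, whichever gene the peak was assigned to. Values for a gene are given throughout in the order Flag day 3, D209N day 3, Flag day 7, D209N day 7.

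The 36 genes together had 67, 44, 108 and 96 assigned peaks. Per gene this is a mean of 1.86, 1.22, 3.0 and 2.67, beside 1.44, 1.17, 1.75 and 1.66 for a protein-coding gene in general. The D209N day 3 list was the lowest and the day 7 lists were the highest, for the members as for all genes. The sequence under the members' peaks came to 31.5, 21.1, 49.0 and 43.5 kb. The lists themselves differ in length, with 31485, 25496, 38363 and 36335 peaks assigned to any gene. The members' total in D209N at day 3 was 0.657 of that in Flag, against 0.81 for all genes, and at day 7 it was 0.889, against 0.947. From day 3 to day 7 the members' total was multiplied by 1.61 in the Flag arm, against 1.22 for all genes, and by 2.18 in the D209N arm, against 1.43. When each list was cut to its widest peaks so that all 4 had the same length, the ratios for the members were 0.898, 1.03, 1.31 and 1.5, and those for all genes 0.998, 0.991, 1.05 and 1.04. With lists of equal length the gap between days was thus smaller but kept its direction in both arms, and the arms at day 7 were close to equal. Among peaks wider than the median, the members' ratio of D209N to Flag at day 3 was 0.889, above the 0.811 of all genes, so the lower ratio of the members at day 3 was not seen among the wider peaks. The ratio of day 7 to day 3 among the wider peaks was 1.52 in Flag, against 1.21 for all genes. In D209N it was 1.42 for the members and 1.42 for all genes, so the members' day excess was not seen there.

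**Figure D1:**
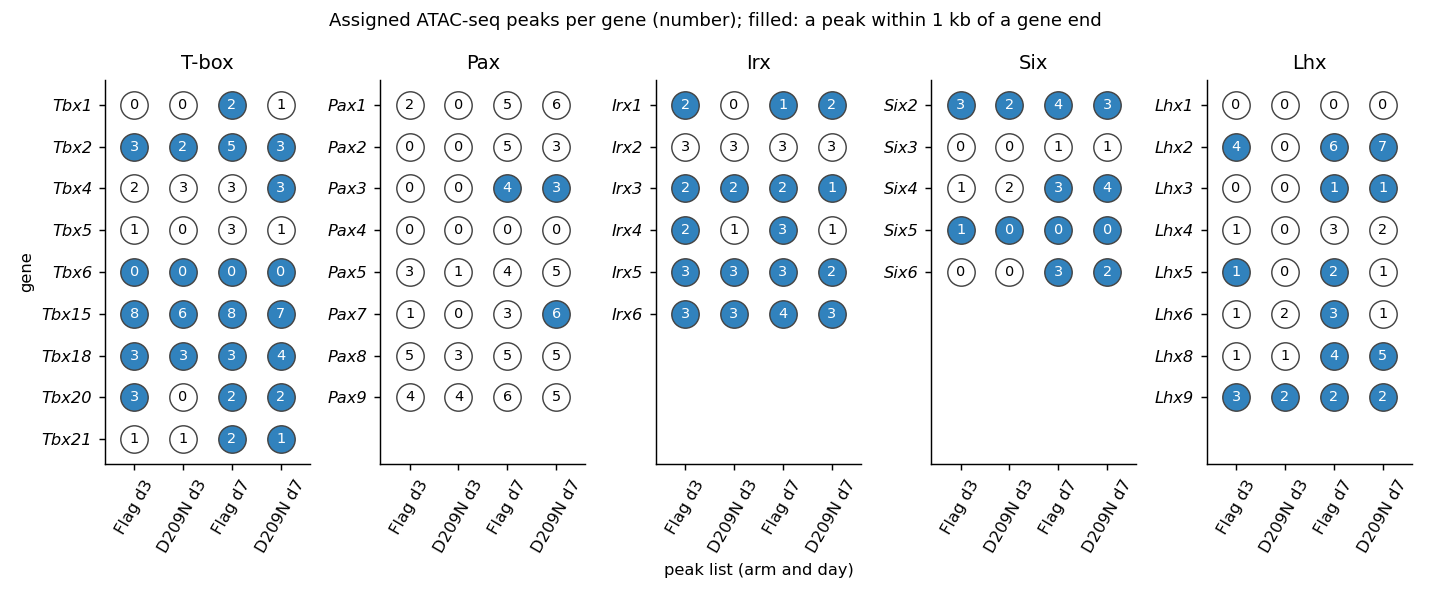
Number of assigned ATAC-seq peaks (printed in each circle) for each of the 36 genes (rows, a panel per family) in the 4 peak lists (columns), with 1 list per group and filled circles where a peak lies within 1 kb of a gene end. The D209N day 3 column has 18 genes at 0, and each day 7 column has 4.

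Most members had nearby peaks in some list. An assigned peak was present in all 4 lists for 18 genes and in none for 3, which are Tbx6, Pax4 and Lhx1. Members without an assigned peak numbered 9, 18, 4 and 4, or 25.0%, 50.0%, 11.1% and 11.1%. Over all coding genes 65.8%, 61.2%, 70.7% and 69.9% had an assigned peak, which leaves 34.2%, 38.8%, 29.3% and 30.1% without. Of the 9 genes without a peak at day 3 in either arm, 6 had peaks at day 7 in both arms: Tbx1, Pax2, Pax3, Six3, Six6 and Lhx3. No member had fewer peaks at day 7 than at day 3 in both arms, while 18 had more in both. Matching joint counts over all coding genes are not given here, and both day 7 lists are longer than the day 3 lists. Arm by arm, 66.7% of the 9 members without a Flag peak at day 3 had one at day 7, against 21.3% of genes. In D209N it was 77.8% of 18 members, against 26.8%.

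At the gene ends, 15, 10, 23 and 21 of the 36 genes were marked, or 41.7%, 27.8%, 63.9% and 58.3%. The background over all protein-coding genes was 55.9%, 51.7%, 61.5% and 60.4%. The members were thus marked less often than genes in general at day 3, and at close to the background at day 7. In D209N at day 7 this did not hold for wider peaks or shorter lists: the share was 33.3%, against 52.8%, with peaks above the median width and 44.4%, against 57.6%, with lists of equal length. For 27 members and 17491 genes, the strand and start were known from the promoter table. A peak within 1 kb of a start was found for 12, 8, 20 and 20 of these 27, or 44.4%, 29.6%, 74.1% and 74.1%, beside 58.2%, 54.3%, 63.0% and 62.3% of all such genes. The day 7 shares at starts lay above the background. A start peak was present at day 7 and not at day 3 for 8 of the 27 (29.6%) in the Flag arm, against 5.37%. In the D209N arm this held for 12 of the 27 (44.4%), against 8.23%. At day 3, 4 of the 27 (14.8%) had a start peak in Flag and none in D209N (Tbx20, Pax1, Lhx2 and Lhx4), against 4.68%.

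**Figure D2:**
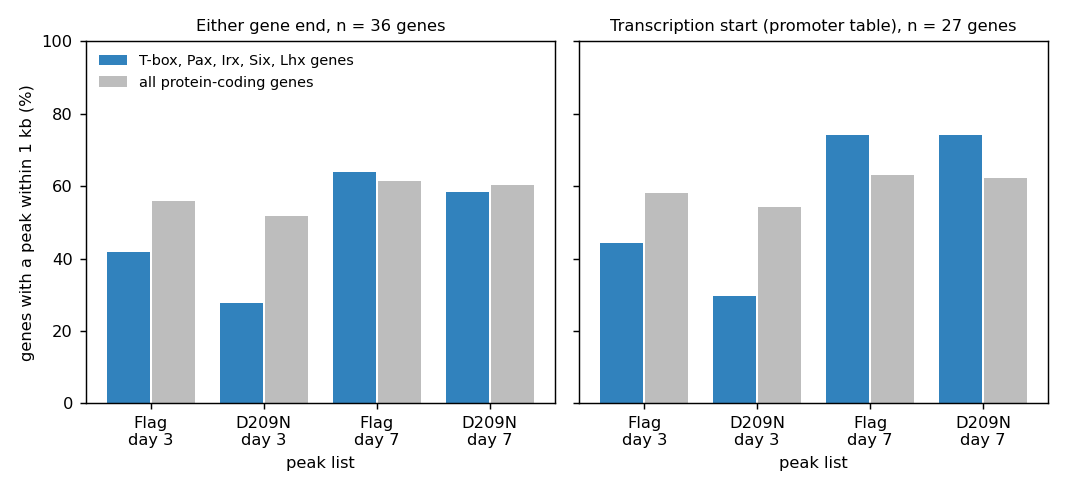
Share of genes (%) with a peak within 1 kb of either gene end (left, 36 genes) or of a transcription start (right, 27 genes) in each of the 4 lists, for the 36 members and for all protein-coding genes. The share for the members goes from 27.8% in D209N at day 3 to 58.3% at day 7 at gene ends, while that of all genes goes from 51.7% to 60.4%.

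Of the 36 gene ends, 10 were marked in all 4 lists, 11 in none and 15 in some. The shares marked in all lists and in none were 27.8% and 30.6%, against 50.6% and 37.0% of coding genes. The 10 that were marked throughout are Tbx2, Tbx6, Tbx15, Tbx18, Irx3, Irx5, Irx6, Six2, Six5 and Lhx9, among them genes of limb and body-wall mesenchyme. The marks of Tbx6 and Six5 cannot be tied to these genes alone. The Tbx6 peak was assigned to Ypel3 and the Six5 peaks mostly to Dmpk, and the nearest coding neighbours have ends 0.318 kb from Tbx6 and 0.278 kb from Six5. Of the 15 that were marked in some lists, 6 were marked in both day 7 lists alone (Tbx21, Pax3, Six4, Six6, Lhx3 and Lhx8) and 3 in all but D209N day 3 (Tbx20, Irx1 and Lhx2). These were 16.7% and 8.33% of members, against 3.88% and 4.29% of coding genes. Tbx4 and Pax7 were marked in D209N day 7 alone, Tbx1 and Lhx6 in Flag day 7 alone, and Irx4 and Lhx5 in both Flag lists alone. Each of these pairs was 5.56% of members, against 0.699%, 1.66% and 0.238% of coding genes.

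The comparison of the 2 arms asks whether the catalytically inactive RNase H1 goes with a different set of open sites. At day 3, 16 members (44.4%) had fewer assigned peaks in D209N than in Flag, against a background of 24.1% of all coding genes. More were seen for 3 (8.33%), Tbx4, Six4 and Lhx6, against 6.41%. The members' share lay above the background in the direction of fewer peaks and close to it in the other. With lists of equal length the counts were 8 of 36 with fewer and 5 of 36 with more, against 12.6% of genes each. A shortfall of at least 2 peaks was seen for 7 members (19.4%), against 7.0% of genes: Tbx15, Tbx20, Pax1, Pax5, Pax8, Irx1 and Lhx2. Among the 27 members with a Flag peak at day 3, 9 had none in D209N, or 33.3% (95% exact binomial interval 16.5 to 54.0, counting error only), against 9.72% of genes with a Flag peak. These were Tbx5, Tbx20, Pax1, Pax7, Irx1, Six5, Lhx2, Lhx4 and Lhx5. Six5 still had a 697 bp peak at its end in D209N at day 3, assigned to Dmpk. A gene-end peak was present in Flag and not in D209N for 5 members (13.9%), against 5.03% of genes. The reverse was found for 0 members, against 0.809%. At day 7, 17 members (47.2%) had fewer peaks in D209N, against 17.7%, and 8 (22.2%) had more, against 11.2%. Both shares lay above the background. Lists of equal length gave 10 of 36 members in each direction, against at most 11.9% of genes in either. Neither direction prevailed there, and both shares still lay above the background. A shortfall of at least 2 peaks was seen for 5 members (13.9%), Tbx2, Tbx5, Pax2, Irx4 and Lhx6, against 3.79%. A gene-end peak was present in D209N alone at day 7 for 2 members (5.56%), against 0.973%, and in Flag alone for 4 (11.1%), against 2.02%. The members have more peaks per gene than coding genes in general, and the part of this in the counts was not tested.

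The comparison of days asks which sites are listed as open late and not early. In the Flag arm 23 members (63.9%) had more assigned peaks at day 7, against a background of 29.0%, and 4 (11.1%) had fewer, against 11.8%. An excess of at least 2 peaks was seen for 14 (38.9%), against 10.8%. In the D209N arm 23 (63.9%) had more, against 33.3%, and 3 (8.33%) had fewer, Irx3, Irx5 and Lhx6, against 7.22%. An excess of at least 2 was seen for 13 (36.1%), against 13.5%. The members' shares with more peaks lay above the background in both arms. With lists of equal length, members with more peaks numbered 14 of 36 in Flag, against 18.3% of genes, and 18 of 36 in D209N, against 18.1%. Those with fewer numbered 5 of 36 and 6 of 36, against 13.7% and 14.4%. A gene end was marked at day 7 and not at day 3 for 8 members (22.2%) in the Flag arm, against 6.23%. In the D209N arm this held for 11 (30.6%), against 9.02%. Lists of equal length gave 7 of 36 in each arm, against 5.44% and 6.64%. The reverse was found for 0 members in each arm, against 0.704% and 0.32%. Among gene ends without a mark at day 3, the share marked at day 7 was 38.1% of 21 members in Flag, against 14.1% of genes, and 42.3% of 26 members in D209N, against 18.7%. With peaks above the median width the D209N share was 6 of 30 members, against 21.9%, no longer above the background. The 2 day comparisons and the 2 arm comparisons share their lists, so they are not independent of each other.

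Genes of limb and body-wall mesenchyme held the most peaks. Tbx15, which patterns the skin and skeleton of the trunk, had 8, 6, 8 and 7 assigned peaks, the highest sum of any member. Its gene end was marked in every list, though in D209N at day 3 the mark rests on an interval of 38 bp where the other lists have 636 to 737 bp. Tbx2, a repressor in limb and heart, had 3, 2, 5 and 3 peaks, and its neighbour Tbx4, a hindlimb and lung factor 44.4 kb away, had 2, 3, 3 and 3. For Tbx2 the Flag list was higher on both days, whereas for Tbx4 the D209N list was equal or higher. The end of Tbx4 was marked in D209N at day 7 alone, by a 235 bp peak at the end away from the start (chr11:85916121-85916355), and the nearest Flag day 7 peak lay 8.76 kb off. Tbx5, the forelimb counterpart of Tbx4, had 1, 0, 3 and 1 peaks, none of them at a gene end.

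Tbx18, a factor of somites and of the mesenchyme around organs, had 3, 3, 3 and 4 peaks and a peak over its start in each list. Lhx9, which acts in limb and gonad, had 3, 2, 2 and 2. These 2 genes hardly varied across the lists. Pax9, a gene of the ventral body axis and pharyngeal pouches, had 4, 4, 6 and 5 peaks, and Pax1, its close relative, had 2, 0, 5 and 6. The neighbour Slc25a21 has an end 0.19 kb from that of Pax9, and when peaks went to the nearest gene body, or were assigned within 20 or 50 kb, Pax9 had 1, 2, 2 and 2. Pax9 had a peak at its transcription start in every list, whereas Pax1 had no peak in D209N at day 3 and its highest count in D209N at day 7. The Pax1 region at its transcription start, 414 bp long over the lists, was present in every list but D209N day 3. The other 7 Pax1 regions lay 40.7 to 68.8 kb upstream of the gene, and 6 of them were listed at day 7 only.

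Lhx2, which acts in limb outgrowth, hair follicle stem cells and forebrain, varied the most across lists. It had 4 assigned peaks in Flag at day 3, 0 in D209N at day 3, 6 in Flag at day 7 and 7 in D209N at day 7. Both of its ends were marked in the 3 lists with peaks, and in D209N at day 3 the nearest peak lay 51.8 kb away. The peak at its start measured 418 bp in Flag day 3 (chr2:38339309-38339726), 749 bp in Flag day 7 and 485 bp in D209N day 7, and covers the 3′ end of the CG-rich window printed above. A further start inside the gene, under a region 11.8 kb from the gene's nearer end, showed the same presence in 3 lists. With lists of equal length Lhx2 had 3, 0, 3 and 2 peaks, and among peaks wider than the median 0, 0, 3 and 1, so its day 3 difference between the arms lay in peaks of ordinary or small width.

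**Figure D3:**
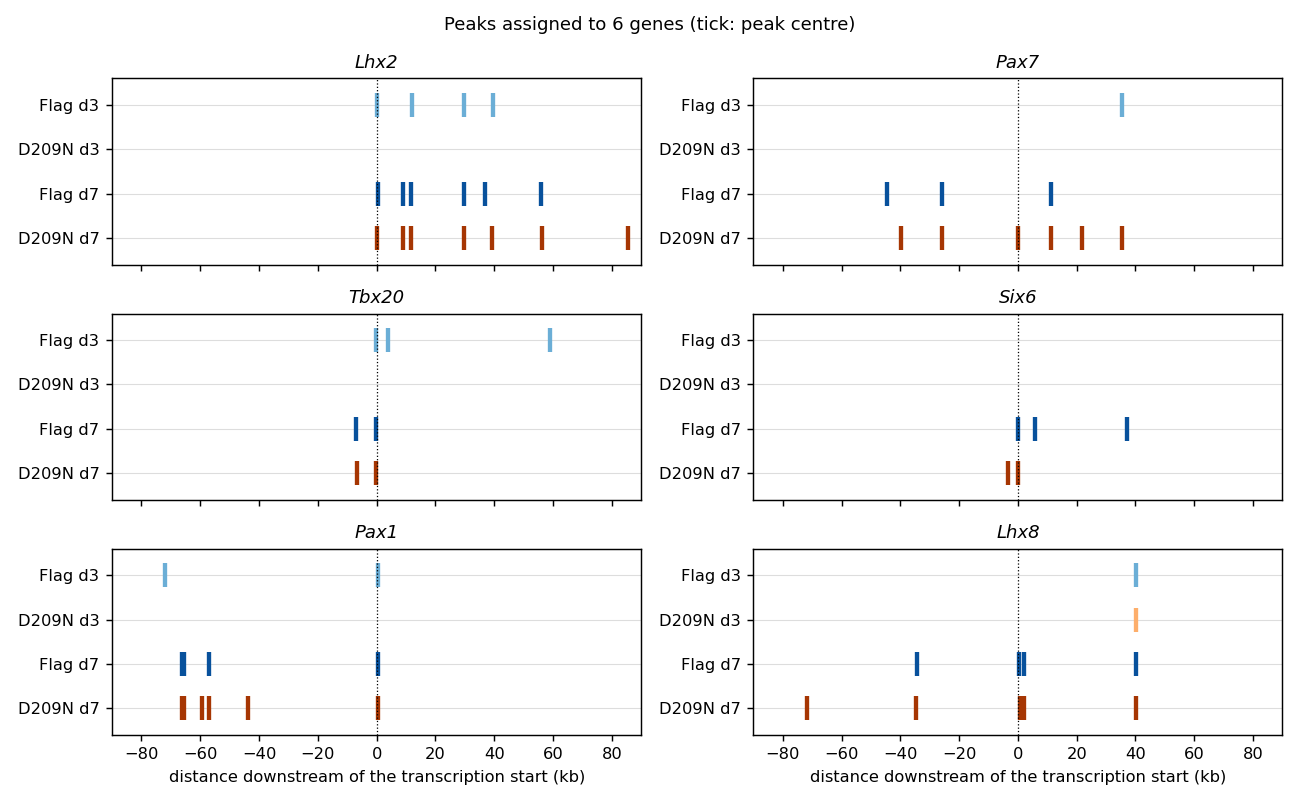
Centres (ticks) of the ATAC-seq peaks assigned to 6 genes, Lhx2, Tbx20, Pax1, Pax7, Six6 and Lhx8, by distance downstream of the transcription start in kb (x axis) in each of the 4 lists (rows). Lhx2 and Tbx20 have no peak assigned in the D209N day 3 row, where the Flag day 3 row has 4 and 3.

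Among the genes of pharynx and heart, Tbx20, which is required in the heart chambers, had 3, 0, 2 and 2 assigned peaks. Its start peak measured 429 bp in Flag day 3 (chr9:24774231-24774659), 590 bp in Flag day 7 and 489 bp in D209N day 7, while the nearest peak in D209N at day 3 lay 217.0 kb away. The absence at D209N day 3 therefore covers the whole neighbourhood of the gene. Tbx1, a pharyngeal gene, had 0, 0, 2 and 1 peaks. Its end was marked in Flag day 7 alone, but the D209N day 7 peak over the same region missed the window by a small margin, at 1.03 kb from the end, so the 2 day 7 lists hardly differ there. Irx4, a ventricle marker, had 2, 1, 3 and 1 peaks. Its marks lay at the end away from the start, 226 bp wide in Flag day 3 and 64 bp in Flag day 7, and its start had no peak in any list.

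For kidney, thyroid and ear, Pax8, the thyroid and kidney factor, had 5, 3, 5 and 5 peaks without a mark at either end. Pax2, a kidney and ear gene, had 0, 0, 5 and 3, all at day 7. Of its 7 union regions 1 was shared by both day 7 lists, so the arms differed in which Pax2 sites they listed. Six2, which maintains nephron progenitors and is active in face mesenchyme, had 3, 2, 4 and 3 peaks and a start peak in all 4 lists. Lhx1, needed for the early kidney and head, had none in any list although its promoter window holds 31 CG.

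The 5 somite and muscle genes had 3, 2, 10 and 13 assigned peaks in all, few at day 3 and more at day 7. Pax3 and Pax7 mark muscle progenitors and neural crest, and both act upstream of the muscle regulators. Pax3 had 0, 0, 4 and 3 peaks, and its end (chr1:78196675-78197291 in Flag day 7) was marked at day 7 in both arms. Pax7 had 1, 0, 3 and 6, and its start was marked by a 352 bp peak in D209N day 7 alone (chr4:139832807-139833158), with the nearest Flag day 7 peak 11.7 kb off. Both genes had their highest counts at day 7, in opposite arms. Six4, a muscle and placode gene, had 1, 2, 3 and 4 peaks, and its start was marked in both day 7 lists. The Flag day 7 mark of Six4 is a 1222 bp peak assigned to Mnat1, a gene with an end 1.85 kb from that of Six4, and with assignment to the nearest gene body Six4 had 2, 1, 4 and 5 peaks. The skeletal muscle regulators Myf5 and Myog had 0 peaks in every list, and Myod1 had 0, 0, 1 and 1.

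The largest role group was that of nervous system, eye and pituitary, with 13 genes and 20, 15, 34 and 29 peaks. Lhx8, a factor of forebrain cholinergic neurons and of tooth and palate mesenchyme, had 1, 1, 4 and 5 peaks, with its start marked at day 7 in both arms. Lhx6, of cortical interneurons, had 1, 2, 3 and 1, with a start peak of 372 bp in Flag day 7 alone. Lhx8 thus showed the day difference in both arms and Lhx6 in the Flag arm. Lhx3, a pituitary and motor neuron factor, had 0, 0, 1 and 1, a single peak at its start (chr2:26208066-26208493 in Flag day 7). Lhx4, its close relative, had 1, 0, 3 and 2, and Lhx5, of the forebrain, had 1, 0, 2 and 1. In both relatives the D209N list held fewer peaks than the Flag list on each day. The Lhx5 end was marked in both Flag lists, by peaks of 333 and 365 bp, and in neither D209N list.

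Six6, an eye and pituitary gene, had 0, 0, 3 and 2 peaks, with a start peak of 244 bp in Flag day 7 and 220 bp in D209N day 7. Six3, the forebrain factor next to Six2, had 0, 0, 1 and 1, while Six2 itself was marked in every list, 36.5 kb away. The neighbours Six2 and Six3 therefore differed at day 3. Pax5, a midbrain and B cell gene, had 3, 1, 4 and 5 peaks, all inside the gene and none at an end or start. Most Irx genes, which divide neural and limb territories, varied by at most 1 peak. Irx2 had 3 in each list, Irx5 had 3, 3, 3 and 2, Irx3 had 2, 2, 2 and 1, and Irx6 had 3, 3, 4 and 3. Irx1 varied more, with 2, 0, 1 and 2, as did Irx4, given above with the heart genes. Its end peak of 1197 bp in Flag day 3 (chr13:71962882-71964078) recurred in both day 7 lists at 1012 and 987 bp and had no counterpart in D209N at day 3, where the nearest peak lay 335.0 kb away. Tbx21, the T helper 1 regulator of blood cells, had 1, 1, 2 and 1 peaks and a start peak at day 7 in both arms.

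By family, the T-box genes had 21, 15, 28 and 22 peaks, Pax 15, 8, 32 and 33, Irx 15, 12, 16 and 12, Six-family 5, 4, 11 and 10, and Lhx 11, 5, 21 and 19. T-box, Pax, Six-family and Lhx totals were higher at day 7 than at day 3 in each arm. The Irx totals differed by 1 peak in Flag and by 0 in D209N. Few Pax genes were marked at an annotated gene end, with 0, 0, 1 and 2 of 8. At the transcription starts of the promoter table, some of which lie inside the annotated gene, 2, 1, 3 and 4 of the 6 matched Pax genes had a peak.

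Peaks of the members merged into 141 union regions. Those present in all 4 lists numbered 31, or 22.0% (95% exact binomial interval 15.5 to 29.7, counting error only), against 41.4% of all assigned regions. Those found in both day 7 lists alone numbered 30, or 21.3% (14.8 to 29.0), against 13.4%. With lists of equal length there were 15 such regions, and the share among all regions was 7.41%. Among peaks above the median width there were 5, and the share among all regions was 11.8%. The members' totals of regions under these settings are not given here. Regions absent from D209N day 3 alone numbered 13, or 9.22%, against 8.44%, a share close to the background, and 27 regions (19.1%) were found in Flag day 7 alone, against 10.6%. The members' regions lay at gene ends less often, 18.4% against 28.9%. Among regions present in all 4 lists, 25.8% of the members' regions lay at a gene end against 50.6% of all regions, at median distances of 7.12 and 1.31 kb. Among regions of day 7 alone the members had 6 of 30 at a gene end, against 16.7% of all such regions. The constant regions of the members thus lay mostly away from the annotated gene ends. In Tbx15, 6 of 9 regions were present in all 4 lists. Gene ends here are the outer ends, and some constant regions cover a start inside the gene, as in Irx2 and Pax9.

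**Figure D4:**
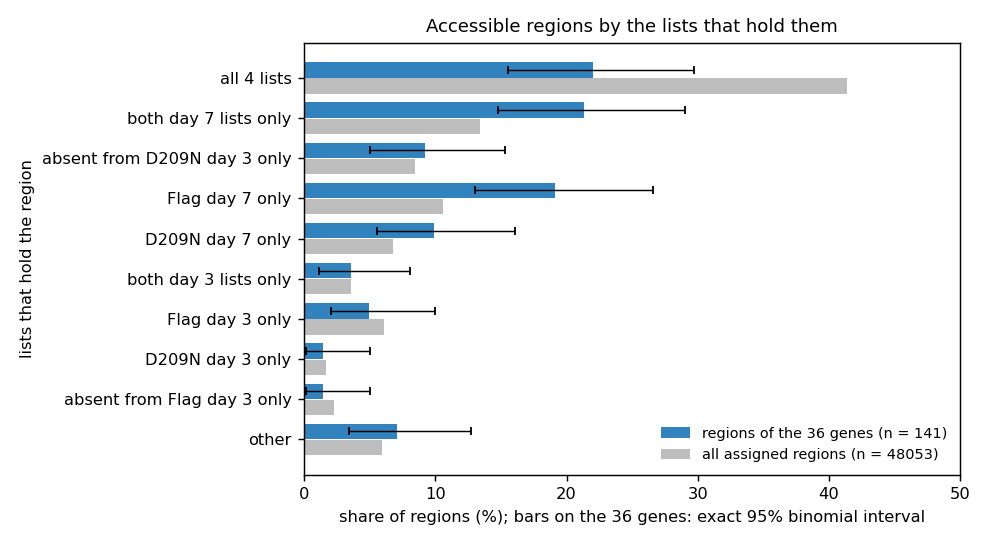
Share of union regions (%) by the lists that hold them, for the 141 regions of the 36 genes (with exact 95% binomial intervals, counting error only) and for all 48053 assigned regions. The members had 22.0% of their regions in all 4 lists, against 41.4% of all regions, and 21.3% in both day 7 lists alone, against 13.4%.

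The promoters of the members are CG-rich and were often without a peak. The 27 matched members have 35 windows with a median of 17 CG (4 to 37), against 13 in the 21262 windows of all coding genes, and a median GC content of 61.0% against 56.3%. Windows overlapped by a peak numbered 10, 6, 15 and 15, or 28.6%, 17.1%, 42.9% and 42.9%, beside 52.2%, 48.1%, 57.2% and 56.6% of all windows. The members' 18 windows without a peak in any list had a median of 16 CG, where the 8762 such windows of all genes had a median of 3. Of the 27 member windows with at least 13 CG, 19 (70.4%) had no Flag peak at day 3, against 14.1% of all windows that CG-rich, and 6 of the 19 (31.6%) had one at day 7, against 50.6%. In the D209N arm 22 of 27 (81.5%) had none at day 3, against 19.9%, and 9 of the 22 (40.9%) had one at day 7, against 60.8%. At day 3 most CG-rich windows of genes in general thus had a peak and most of the members' did not, while at day 7 a peak was present over 14 of the 27 in each arm. Windows of one gene can overlap, as the pair of Six4 windows does, so the windows are not independent.

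Short motifs were searched in the windows on both strands. GGGCGG, the GC box bound by Sp and Klf proteins, was found in 65.7% of the members' windows and 46.2% of all windows, and CCACCC, the CACCC box, in 51.4% and 33.6%. Both motifs are rich in G and C, as the windows are. GGAATG, the TEAD site, was found in 2.86% against 13.6%, TGANTCA, the AP-1 site, in 8.57% against 6.99%, and TAATTA, a homeodomain site, in 2.86% against 4.53%. CCAAT was found in 37.1% against 38.2% and TATAAA in 11.4% against 12.6%. The octamer ATGCAAAT, the Sox site ACAATGG and the T-box site AGGTGTGA were found in 0 of the 35 windows, against 1.66%, 2.92% and 1.15% of all. The Lhx2 and Tbx21 windows printed above hold 4 and 3 GC boxes, and those of Tbx18 and Lhx1 hold none.

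Relatives and partners of the members were followed by the same rule. The 15 relatives outside the member list had 35, 22, 55 and 52 peaks, with 8, 5, 10 and 10 gene ends marked. Lmx1b, a limb and midbrain gene, had 1, 1, 9 and 8, and T, the mesoderm gene, had 0, 0, 3 and 3. The 16 cofactor genes of the Eya, Dach, Ldb, Lmo and Tle families had 52, 36, 53 and 52 peaks, with 10, 9, 12 and 12 ends marked. The co-repressor gene Tle3 had 4, 0, 9 and 9 and lacked its end mark in D209N at day 3 alone. Relatives and cofactors were both lowest in D209N at day 3. Of 10 fibroblast marker genes, 6, 7, 6 and 7 had a marked end, against 55.9%, 51.7%, 61.5% and 60.4% of all coding genes. Col1a1, Col1a2, Pdgfrb, Twist1, Vim and S100a4 were marked in every list, Col3a1 in both D209N lists, and Thy1, Pdgfra and Prrx1 in none. For other cell types the marks numbered 2 of 6 in each list for macrophage and blood, 2 of 5 for endothelium, 0, 0, 1 and 1 of 4 for keratinocyte and for skeletal muscle, and 0, 0, 0 and 1 of 5 for neuron and neural crest. Adgre1, Lyz2, Krt5 and Krt14 had 0 peaks in every list. Of the other macrophage and blood markers, Ptprc had 2, 3, 2 and 2 and Cd68 had 1, 1, 2 and 2. Spi1 had 2, 1, 4 and 2 and Csf1r had 0, 1, 1 and 1. Of the other keratinocyte markers, Trp63 had 3, 3, 3 and 2 and Krt1 had 0, 0, 2 and 1. Summed peaks were 21, 24, 33 and 29 for the fibroblast markers, 5, 6, 9 and 7 for macrophage and blood, 15, 14, 25 and 21 for endothelium, 3, 3, 5 and 3 for keratinocyte, 2, 1, 4 and 3 for skeletal muscle, and 5, 3, 12 and 13 for neuron and neural crest. Most of these lists were also higher at day 7, and their part in the members' counts was not tested.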

How the data were processed

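Open chromatin was measured by ATAC-seq in 4 groups of OSKM-infected OG2-MEFs (Flag or RNase H1(D209N), day 3 or day 7), and 1 peak list per group was used. The authors deposited each list as intervals (start and end coordinates, with a name) without score, height or count. Bowtie2 2.3.2 and CASAVA are the tools, and mm10 and GRCm38.p5 the builds, in the submitters' processing notes, which give no role or order. For the peak caller, its threshold and any pooling of libraries, the entry is "not given in the sources used here". The peak names carry "rep1", although the labels name 2 libraries in each group.

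Genes were the 21883 protein-coding genes of chromosomes 1 to 19, X and Y in RefSeq GRCm38.p6, whose chromosome coordinates are those of mm10. Each peak was assigned to the gene with the nearest end when its centre lay within 100 kb, a gene end was marked by a peak overlapping the 1 kb on either side, and peaks overlapping by at least 1 bp were merged into union regions. Promoter windows matched 27 members by gene identifier and chromosome, and the other 9 are without a window. Counts of members are read beside the same count over all genes, and no test was run, because each group has 1 list and no counts. Exact binomial intervals (95%) cover counting error only. The assignment was tested on simulated data: 500 of 500 real peaks had the nearest end found by a direct search, and 200 of 200 removed and 200 of 200 added gene-end peaks were recovered.

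The members and lists were chosen with earlier results of these data known. Values in all 4 lists are given for each member whose gene end was marked in some lists only, whose assigned peaks differed by 3 or more between lists, or which was among the 5 with most peaks, 25 members in all, and the other 11 are named with values where they help. Alternatives were other distances (20 and 50 kb), the nearest gene body, windows of 500 bp and 2 kb, peak centres, transcription starts only, stricter overlap (50%), peaks above the median width and lists of equal length, and, added after seeing the lists, joined intervals of one name and intervals of at least 100 bp. Python 3.11.15, numpy 2.4.6, pandas 2.3.3, scipy 1.17.1 and matplotlib 3.10.9 were used.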

Additional observations from a re-analysis of the deposited data

Results flagged for a closer look

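Some members moved in opposite directions in the 2 arms, or differed in opposite directions on the 2 days. None of these differences was tested, since each group has 1 list, and they concern counts of a few peaks. The day 7 minus day 3 difference was -1 in Flag and 2 in D209N for both Tbx20 and Irx1, a gap of -3 peaks, and 2 in Flag and -1 in D209N for Lhx6, a gap of 3. Such opposite day differences were found for 3 of 36 members, against 4.44% of coding genes.

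The D209N minus Flag difference was -4 at day 3 and 1 at day 7 for Lhx2, a gap of 5 peaks, and -1 and 3 for Pax7, a gap of 4. For Pax1, Pax5 and Irx1 it was -2 at day 3 and 1 at day 7, a gap of 3. Lhx6 went the other way, with 1 at day 3 and -2 at day 7, a gap of -3. Opposite arm differences were found for 6 of 36 members, against 6.59% of coding genes.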

How the results depend on the processing

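No paired analysis was possible because each group has 1 list, and for the same reason no library could be left out. Depth is unknown, so absence from a list is absence from the list and not of opening. The ratio of member totals, D209N to Flag, at day 7 turned from 0.889 to 1.03 with lists of equal length. Among totals and counts of members or regions, the nearest gene body, other windows, stricter overlap and peak centres moved none by over 1.5 times. Of the 100 counts of single genes, the nearest gene body moved 6 (Pax9 in each list, Six4 at day 3), 50 kb 19, 20 kb 36, lists of equal length 31 and the median width 68. Requiring peaks above the median width gave member totals of 27, 24, 41 and 34. At day 3, 6 of 36 members were then lower in D209N, against 16.0% of coding genes. At day 7, 4 of 36 were higher and 10 of 36 lower in D209N, against 7.09% and 11.1%. The same peaks gave 12 of 36 members with more at day 7 in Flag, against 19.3%. In D209N 11 of 36 had more and 5 of 36 fewer, against 23.6% and 4.78%. Marked ends in D209N at day 3 and day 7 numbered 6 and 12 of 36, against 40.2% and 52.8%. In D209N alone at day 7, 0 were marked, against 1.65%. At day 7 and not day 3 in D209N, 6 of 36 were marked, against 13.1%. Regions in all lists were then 14, in day 7 alone 5 and absent from D209N day 3 alone 7. The shares among all regions were 44.3%, 11.8% and 10.2%. Lists of equal length gave a Flag day 7 total of 64. With them 5 of 36 members were higher and 8 of 36 lower in D209N at day 3, against 12.6% each. At day 7, 10 of 36 were lower, against 11.9%. In Flag 14 of 36 had more at day 7, against 18.3%, and in D209N 6 of 36 had fewer, against 14.4%. They gave 1 of 36 ends marked in D209N alone at day 7, against 1.55%. Within D209N 7 of 36 ends were marked at day 7 alone, against 6.64%, and 1 of 36 at day 3 alone, against 0.795%. They also gave 15 regions of day 7 alone and 6 absent from D209N day 3 alone, with shares among all regions of 7.41% and 4.44%. Assignment within 20 kb gave a D209N day 7 total of 62. It gave 4 of 36 members higher and 11 of 36 lower in D209N at day 7, against 8.91% and 14.2%. In D209N 1 of 36 had fewer at day 7, against 5.97%. The regions of day 7 alone numbered 18, with a share of 12.9% among all regions. Within 50 kb 5 of 36 were higher in D209N at day 7, against 10.5%. Of the 36, 1 had fewer at day 7 in D209N, against 6.85%. With starts only, 1 of 27 genes was marked in each arm alone at day 7, against 0.789% in D209N and 1.57% in Flag. Chosen after seeing the data, a minimum interval of 100 bp gave 1 of 36 ends (Irx4) marked in Flag at day 3 alone, against 0.717%. The cause of these shifts was not tested.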
